A study of Rattus norvegicus with 2 samples.

Results

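Rab GTPases were represented by 48 of the 9894 genes listed in either of 2 libraries of rat cortical neurons, each chosen because its rat symbol is Rab followed by digits with an optional final letter. They are small GTP-binding proteins that sit on the membranes of vesicles and organelles and set where a vesicle forms, how it travels and with which membrane it fuses. Each Rab is switched on by a guanine nucleotide exchange factor (GEF), switched off by a GTPase-activating protein (GAP), and taken off the membrane by a GDP dissociation inhibitor (GDI). Escort and prenylating enzymes attach the lipid that holds it there. In neurons, Rab proteins carry membrane into growing neurites and handle synaptic vesicles and endosomes.

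The mRNAs of this family were followed in 2 libraries of E16 cortical neurons, 1 from cells that received the Scramble control plasmid and 1 from cells that received a PIWIL1 RNAi plasmid. PIWIL1 is a member of the PIWI family of small RNA-binding proteins, and the question put to the libraries was which mRNAs differ when it is knocked down. Cells of the cortex of Sprague-Dawley embryos were dissociated, electroporated and kept for 48 h in Neurobasal medium containing 10% serum (FBS) plus 2% B27. Both siRNAs were expressed from a pSuper vector, the siRNA used for the sequenced cells is not specified in the sources used here, and no sorting of electroporated cells is described for these cultures. In such bulk RNA, fewer cells of a type and less RNA per cell cannot be told apart. No gene identifier in the tables was assigned to Piwil1, so its knockdown was not analysed here.

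The libraries are digital gene expression libraries, in which a transcript is represented by 21-base tags that start at its CATG sites, and site 1 is the site nearest its 3′ end. A gene's value is the number of copies of all its tags, and TPM is that number scaled to the clean tags of the library, with no gene length in it. The Scramble library held 1947600 copies on 9496 genes among 3386860 clean tags, and the PIWIL1 RNAi library held 1865913 copies on 9297 genes among 3303344 clean tags. A count of 3 copies, the lowest number that a count of 0 excludes at 95% confidence, equalled 0.886 TPM in the first and 0.908 TPM in the second, but neither table lists a tag with fewer than 2 copies. Of the 13 neuronal markers, 12 had a value, among them Mapt with 4138 and 2514 copies in the Scramble and PIWIL1 RNAi libraries. The summed TPM of these 12 was 6497.5 and 5097.5, and 4 of them (Map1b, Mapt, Snap25 and Elavl3) were called lower by the test described below. Dcx (1337 and 1365 copies) and Gap43 (2670 and 3541) had more copies with PIWIL1 RNAi, and neither was called. Without tags ending in 8 or more A, Gap43 had 851 and 737 copies. With the copies corrected for the last bases of the tags, described further on, Mapt and Elavl3 were called lower, and Map1b and Snap25 were not. Of the radial glia and progenitor markers 8 of 9 had a value and summed to 1092.8 and 1369.5 TPM, 6 of 6 GABAergic markers to 72.34 and 79.61, 4 of 5 astrocyte markers to 113.38 and 123.81, 5 of 5 fibroblast and meningeal markers to 546.21 and 523.1, and 6 of 6 oligodendrocyte markers to 6.8 and 6.36, with none of them called. The higher sum of the progenitor markers came from Vim (2674 and 3724 copies), and the other 7 had lower copies with PIWIL1 RNAi. Of 6 endothelial markers only Flt1 had a value, 2 copies in the PIWIL1 RNAi library. Of the microglial markers, 3 of 6 had a value and summed to 834.1 and 2207.1 TPM, nearly all of it from Cd68, which had 2777 and 7238 copies and was called higher, but had 35 copies in each library once tags ending in 8 or more A were left out. Whether these differences bear on the Rab values was not tested.

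Proteins that bind or regulate Rabs were not counted among the 48 members, all of whose symbols came from RefSeq accessions. Both libraries listed 44 members, with 4 more in the PIWIL1 RNAi library only, and 0 in the Scramble library only. Together they held 13102 copies with Scramble and 12502 with PIWIL1 RNAi, which is 3868.5 and 3784.6 TPM. A member had between 2 and 4332 copies over both libraries, with a median of 78.5, and 9 members passed 1000 copies.

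The tags that decided the calls are shown first, since a gene's ratio is a sum over them. They were read from the deposited tag tables, 5′ to 3′. Capitals mark the run of A at the tag's end, where there is one, or the last 2 bases. The 4 tags of Rab4a at site 1 end in runs of 10 or 11 A, so that only 10 or 11 bases lie before the run.
Rab4a, site 1, most copied: catgcacagtAAAAAAAAAAA
Rab4a, site 1, A6C: catgcccagtAAAAAAAAAAA
Rab4a, site 1, A11C: catgcacagtcAAAAAAAAAA
Rab4a, site 1, G9A: catgcacaatAAAAAAAAAAA
Rab4a, site 2: catgataggatcccacaccCA
Rab12, site 1: catgcatttgcctaaacacTC
Rab12, site 2: catgtagcatctcaaggttTG
Rab21, site 1: catgtagaaaagacctactTA
Rab28, site 1: catgatatccttggatcatTG
Rab38, site 1: catgtaagatatattatatAT
Rab43, site 1: catgttcagtgagaagaacAC
Substitutions count positions from 1 at the tag's 5′ end, with the base of the most copied tag of the site given first. Each of the 3 substituted Rab4a tags differed from the most copied one by that base alone.

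Each gene was compared between the libraries with a two-sided Fisher's exact test of its copies against all other copies on genes, with Benjamini-Hochberg adjustment (FDR) over all 9894 genes. The call needed both an FDR no higher than 0.05 and a log2 ratio of TPM (PIWIL1 RNAi over Scramble) at least 0.58 away from 0. Values given in pairs are in the order Scramble, then PIWIL1 RNAi. There was 1 library per condition and so no replicate check. The test compares these 2 libraries, not the conditions, and every interval given is an exact 95% interval that covers counting error only, since PCR copies are not independent molecules.

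Most of the Rab family had similar values in the 2 libraries. The median log2 ratio of the 40 members with at least 20 copies over both libraries was -0.08, and that of the 7443 genes with as many copies was -0.09. The lower and upper quartiles of these members were -0.35 and 0.11, and those of all genes -0.40 and 0.20. Of the 48 members, 2 (Rab12 and Rab38) were called lower, which is 4.17% of the family where 5.97% of all genes were called lower. Called higher were 3 members (Rab21, Rab43 and Rab4a), which is 6.25% where 2.96% of all genes were called higher. Without tags ending in 8 or more A, Rab12 and Rab38 were again called lower (4.17%, with 5.52% of all genes), and Rab21 and Rab43 higher (4.17%, with 2.18% of all genes). In a family of 48, 1 gene is 2.08%, so each of these shares lay within 2 genes of the share over all genes.

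**Figure D1:**
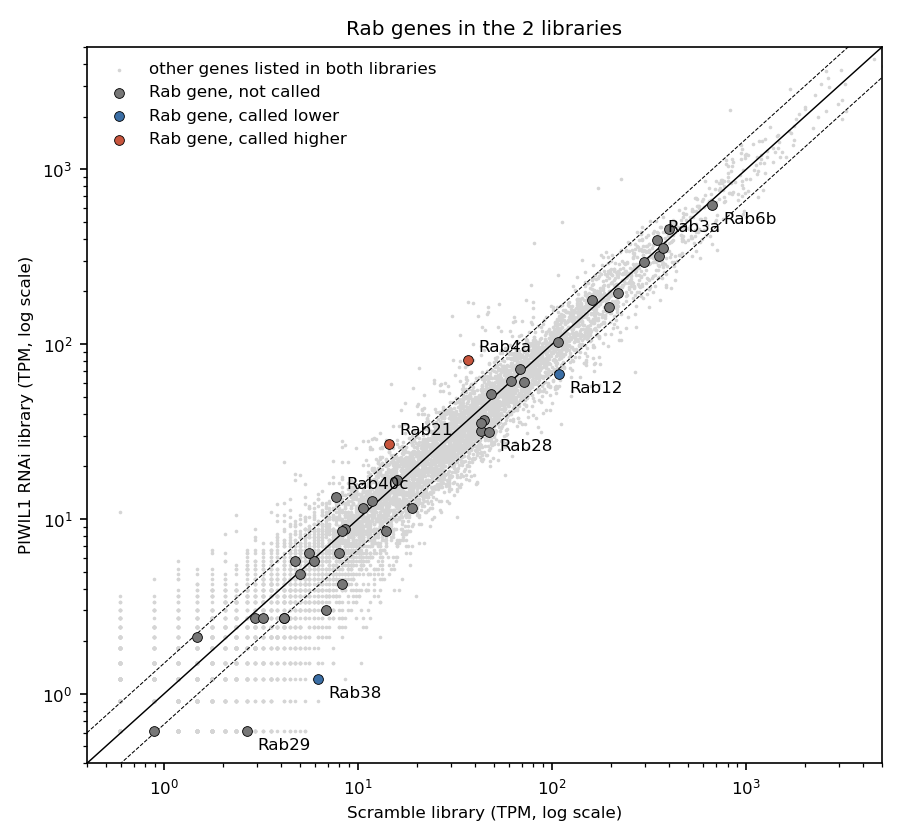
TPM of each gene in the Scramble library (x axis, log scale) and the PIWIL1 RNAi library (y axis, log scale) for genes listed in both, with Rab genes as large points and other genes as small grey points. The solid line marks equal TPM and the dashed lines a log2 ratio of 0.58 either way. Of the called genes, Rab4a and Rab21 lie above the upper line and Rab12 and Rab38 below the lower one. Some Rab genes that were not called, such as Rab40c and Rab29, also lie outside these lines, and the most copied Rab genes lie close to the solid line.

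Depth decided which members could be called at all. Of the members, 20, each with at least 251 copies, could have reached the FDR threshold at an absolute log2 ratio of 0.58. Another 6 could have done so only at a log2 ratio of 1, and 22 not even at that size. Of the 43 members not called, 11 passed the ratio threshold without reaching the FDR threshold, and for these the depth was too low to show a difference. The 4 members Rab28, Rab11a, Rab6a and Rab3a passed the FDR threshold with smaller ratios, and 28 passed neither. With the copies corrected for the last bases of the tags, as described further on, Rab3a passed the FDR threshold (0.0323), while Rab6a (log2 ratio 0.08, FDR 0.211), Rab11a (-0.16, FDR 0.357) and Rab28 (-0.41, FDR 0.188) did not, all by Fisher's exact test. Rab11a also missed it with TMM factors (FDR 0.126) and with DESeq2 size factors (FDR 0.102). Rab10 (log2 ratio -0.32, FDR 0.00345) and Rab11b (-0.21, FDR 0.0209) passed the FDR threshold after the tag-end correction, by Fisher's exact test. Both missed it with the copies of all tags as listed. By the same test both also passed it with only the most copied tag (Rab10 -0.30, FDR 0.0215, and Rab11b -0.31, FDR 0.00323). With only the site nearest the 3′ end, Rab10 was lower (-0.30, FDR 0.0222) and Rab11b higher (0.26, FDR 0.0312).

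The 13 members of the first group act between the endoplasmic reticulum and the Golgi or within the Golgi. They summed to 1507 TPM with Scramble and 1532.4 TPM with PIWIL1 RNAi, with 0 members called lower and 1 called higher. Rab6b, the brain-enriched form of the Golgi Rab6, had 2266 copies (669.06 TPM) and 2066 copies (625.42 TPM), a log2 ratio of -0.10 with an interval of -0.18 to -0.01. Rab6a, its widely expressed relative in retrograde transport to and through the Golgi, had 1349 copies (398.3 TPM) and 1500 copies (454.08 TPM). Its log2 ratio was 0.19 (0.08 to 0.30) with Fisher's exact test giving an FDR of 9.71e-04, so it passed the FDR threshold but not the ratio threshold. Rab1a, which acts in transport from the endoplasmic reticulum to the Golgi, had 540 and 594 copies, a log2 ratio of 0.17 (0.00 to 0.34) with the same test giving an FDR of 0.0991. It passed the FDR threshold by that test with TMM factors (log2 ratio 0.27, FDR 0.0146) and with DESeq2 size factors (0.26, FDR 0.0202). The other members of the group with at least 20 copies ranged from -1.16 (Rab33b, 23 and 10 copies) to 0.11. Rab1b, which shares the role of Rab1a, had 364 and 339 copies (-0.07), Rab33a had 208 and 202 (-0.01), and Rab18, found on lipid droplets and the endoplasmic reticulum, had 163 and 172 (0.11). Rab2b had 47 and 28 copies (-0.71), while its relative Rab2a had 54 and 55 (0.06), and neither was called. Rab34, Rab30 and Rab36 had 40 and 42, 36 and 38, and 14 and 9 copies.

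Rab43, a Rab of the Golgi and endoplasmic reticulum, was the called member of this group and the one with the fewest copies of the 5 called. It was not listed in the Scramble library and had 7 copies of a single tag (2.12 TPM) in the PIWIL1 RNAi library, with Fisher's exact test giving an FDR of 0.0424. No ratio is given, because a tag with 1 copy would not have been listed. When every tag missing from one table was given 1 copy there, the log2 ratio was 2.84 and the FDR 0.164. The other 3 members listed only in the PIWIL1 RNAi library, Rab5a, Rab7b and Rab26, had 4, 2 and 2 copies and were not called.

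**Figure D2:**
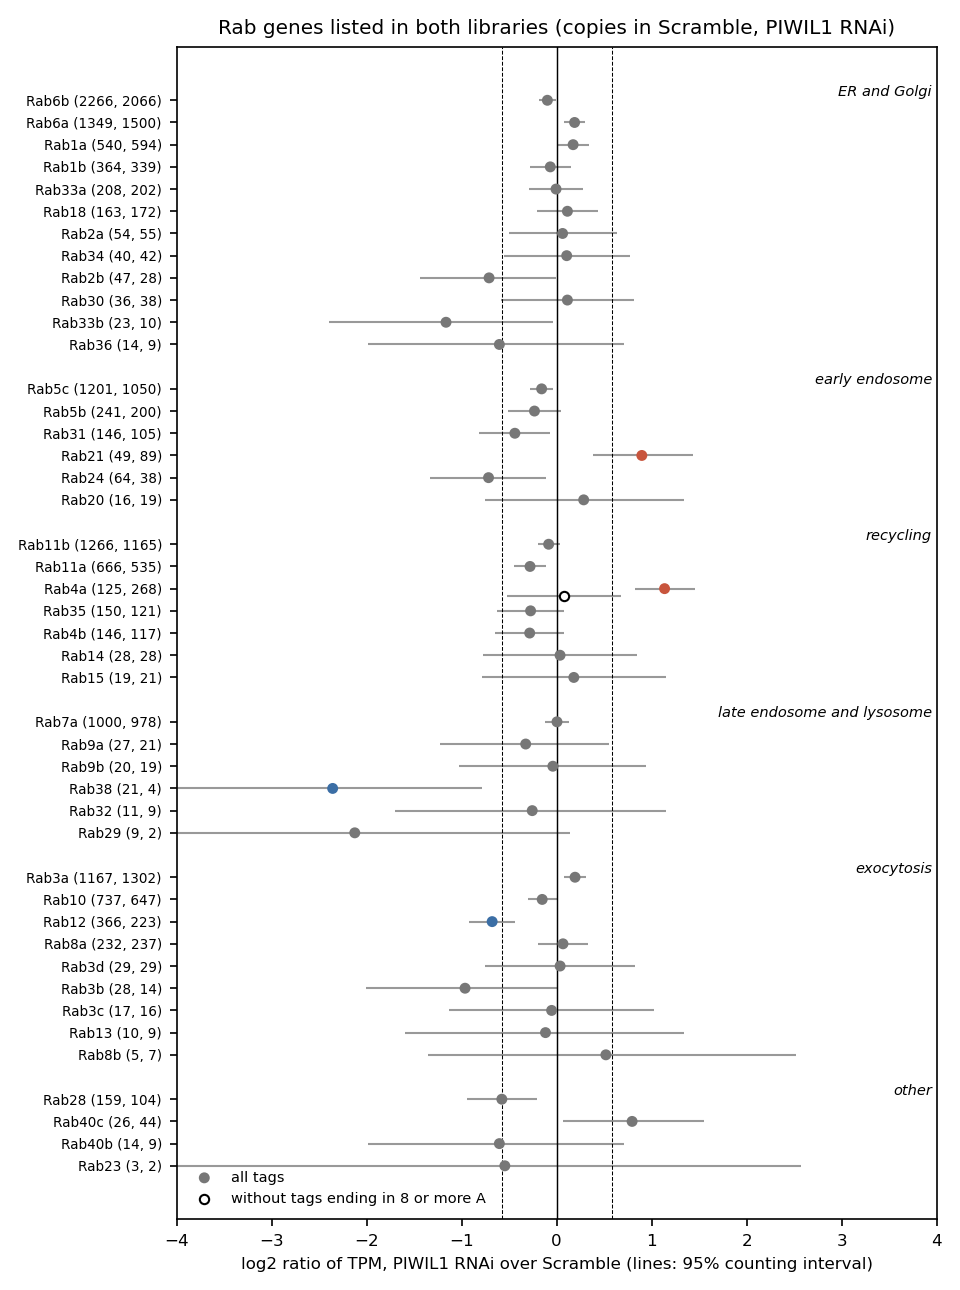
Log2 ratio of TPM, PIWIL1 RNAi over Scramble (x axis), for the 44 Rab genes listed in both libraries, grouped by role, with the copies in the Scramble and PIWIL1 RNAi libraries in brackets. Filled points use all tags (blue called lower, red called higher, grey not called), the open point is Rab4a without tags ending in 8 or more A, horizontal lines are 95% counting intervals (those of Rab38, Rab29 and Rab23 run past the left edge), and dashed lines mark ratios of 0.58 either way; the open Rab4a point lies near 0.

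Early endosomes, where endocytosed membrane is first sorted, have 7 members here. Their summed TPM was 506.97 and 455.59 in the Scramble and PIWIL1 RNAi libraries, with 0 called lower and 1 called higher. Rab5c, a form of the Rab that drives fusion of early endosomes, had 1201 and 1050 copies, a log2 ratio of -0.16 (-0.28 to -0.04) with Fisher's exact test giving an FDR of 0.135. Rab5b, another form of it, had 241 and 200 copies and a log2 ratio of -0.23 (-0.51 to 0.04). Rab31, which acts between the trans-Golgi network and endosomes, had 146 and 105 copies and a log2 ratio of -0.44 (-0.82 to -0.07), with an FDR of 0.122. None of these 3 was called, and all 3 values lay below 0. Rab24, linked to autophagy, had 64 and 38 copies (log2 ratio -0.72, -1.33 to -0.11) and Rab20 had 16 and 19, and neither was called.

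Rab21, which traffics integrins through early endosomes, was called higher. It had 49 copies (14.47 TPM) with Scramble and 89 copies (26.94 TPM) with PIWIL1 RNAi, a log2 ratio of 0.90 (0.38 to 1.43) with Fisher's exact test giving an FDR of 0.00338. Its site 1 tag, shown above, carried 41 and 75 of these copies. The site 2 tag had 4 and 14 copies and the site 3 tag 4 and 0, so the direction rested on the first 2 sites. None of its tags ended in more than 1 A, and with totals that omitted tags ending in 8 or more A it was still called higher.

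A group of 7 members returns cargo from endosomes to the plasma membrane. Their summed TPM was 708.63 and 682.65, with 0 called lower and 1 called higher. Rab11b and Rab11a mark the recycling endosome. Rab11b had 1266 and 1165 copies and a log2 ratio of -0.08 (-0.20 to 0.03). Its main tags differed in direction. The site 1 tag had 407 and 474 copies (0.26, 0.06 to 0.45) and the most copied site 2 tag 747 and 586 (-0.31, -0.47 to -0.16). Rab11a had 666 and 535 copies and a log2 ratio of -0.28 (-0.45 to -0.11) with Fisher's exact test giving an FDR of 0.0186, and its ratio was below the threshold. Lower values were seen in 7 of the 8 tags that reached 20 copies, among them the site 1 tag with 226 and 153 copies.

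Rab4a, which controls fast recycling from early endosomes, had 125 copies (36.91 TPM) with Scramble and 268 copies (81.13 TPM) with PIWIL1 RNAi. Its log2 ratio was 1.14 (0.82 to 1.45) with Fisher's exact test giving an FDR of 6.13e-13, the smallest FDR of any Rab gene. The 4 site 1 tags that end in 10 or 11 A held 76 of its copies with Scramble and 218 with PIWIL1 RNAi, 74.8% of the gene's copies over both. Without them Rab4a had 49 and 50 copies, a log2 ratio of 0.08 (-0.52 to 0.68) with the same test giving an FDR of 0.915. The higher value of Rab4a therefore lay in these tags, although the interval without them reaches past the ratio threshold. The site 2 tag had 28 and 36 copies, and the tags of sites 3, 4, 6 and 7 had at most 9 copies in either library.

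The same kind of tag was more frequent in the PIWIL1 RNAi library over all genes. Tags ending in 8 or more A made up 21048 copies, or 1.08% of the copies on genes, with Scramble and 50841 copies, or 2.72%, with PIWIL1 RNAi. Among Rab genes only Rab4a had any. Its most copied tag had a log2 ratio of 1.60 (with 0.5 copies added, as for all single tags), and the median of all tags ending in 11 A was 1.49. The other recycling Rabs had none of these tags, and Rab35 (150 and 121 copies, log2 ratio -0.27) and Rab4b (146 and 117 copies, log2 ratio -0.28), the close relative of Rab4a, were not called. Rab14 (28 and 28 copies) and Rab15 (19 and 21 copies) had too few copies for a narrow interval.

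**Figure D3:**
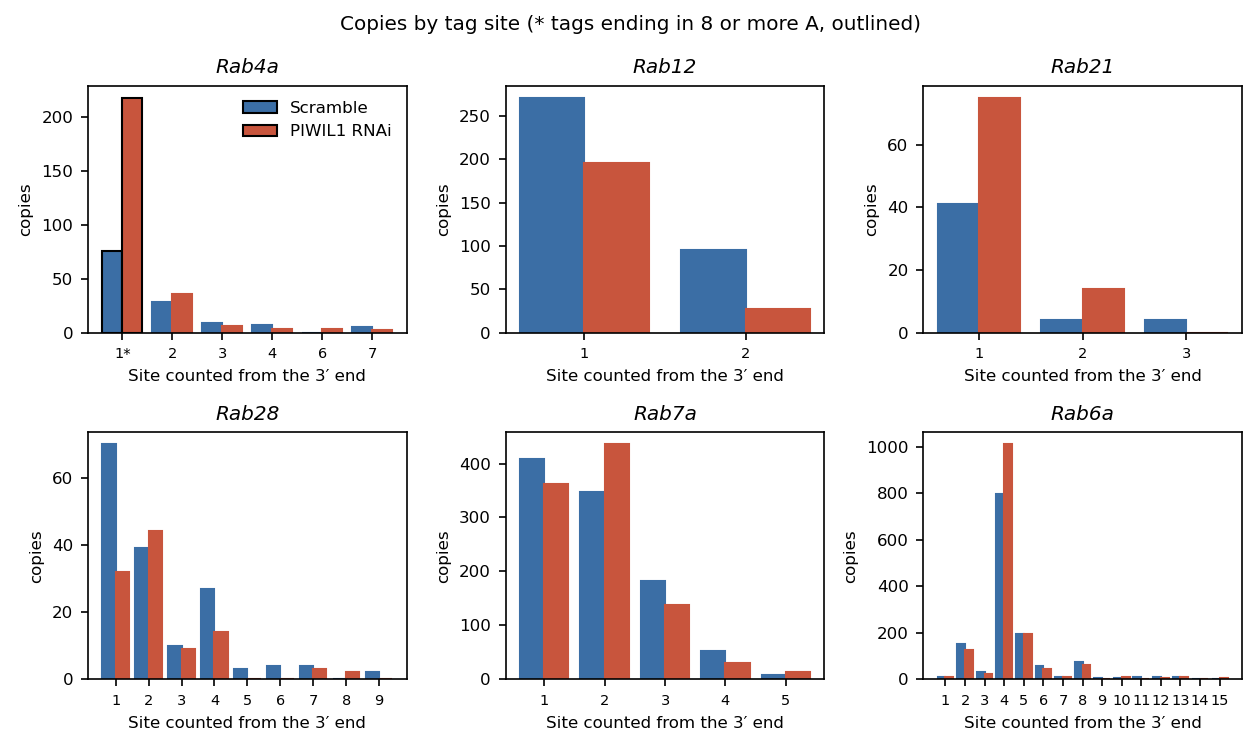
Copies (y axis) at each listed tag site, counted from the 3′ end of the transcript (x axis), for 6 Rab genes, with Scramble in blue and PIWIL1 RNAi in red. The black-outlined bars with an asterisk are the Rab4a tags ending in 8 or more A, 76 and 218 copies; the other sites of Rab4a have similar bars in both libraries, both sites of Rab12 have shorter bars in the PIWIL1 RNAi library, and the sites of Rab28, Rab7a and Rab6a differ in direction.

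Another 7 members act at late endosomes, lysosomes and related organelles. Their summed TPM was 321.25 and 313.32, with 1 called lower and 0 called higher. Rab7a, which drives late endosomes towards fusion with lysosomes, had 1000 and 978 copies and a log2 ratio of 0.00 (-0.12 to 0.13). That interval covers counting error only, and the tags of Rab7a differed in direction, as given further on. The log2 ratio of Rab7a was -0.13 with the tag-end correction and -0.14 with only the site nearest the 3′ end. Rab9a and Rab9b, which act in retrieval from late endosomes to the Golgi, had 27 and 21 copies and 20 and 19 copies, and their intervals were wide (-1.22 to 0.55 and -1.02 to 0.94).

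Rab38, known for the transport of enzymes to lysosome-related organelles such as melanosomes, was called lower. It had 21 copies (6.2 TPM) with Scramble and 4 copies (1.21 TPM) with PIWIL1 RNAi, a log2 ratio of -2.36 (-4.36 to -0.79) with Fisher's exact test giving an FDR of 0.00893. Its site 1 tag carried 19 and 4 copies and its site 4 tag 2 and 0. With 25 copies over both libraries, Rab38 could have been called lower only at a log2 ratio of -1.96 or below. Rab32, its nearest relative in this group, had 11 and 9 copies and was not called. Rab29 had 9 and 2 copies, too few for a call.

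The 10 members of the exocytic group act in regulated secretion and in delivery to the plasma membrane. Their summed TPM was 765.02 and 752.57, with 1 called lower and 0 called higher. Rab3a, the Rab of synaptic vesicles, had 1167 copies (344.57 TPM) and 1302 copies (394.14 TPM), a log2 ratio of 0.19 (0.08 to 0.31) with Fisher's exact test giving an FDR of 0.00192, and its ratio was below the threshold. Its most copied site 1 tag had 1012 and 1175 copies (0.25, 0.13 to 0.37), and its site 3 tag 31 and 38. The most copied site 2 tag of Rab3a was lower, with 110 and 71 copies (-0.59, -1.05 to -0.15). Rab3b, Rab3c and Rab3d had 28 and 14, 17 and 16, and 29 and 29 copies, and none of the 3 was called. Rab8a, which moves vesicles to the plasma membrane and the cilium, had 232 and 237 copies, and its log2 ratio of 0.07 had an interval of -0.20 to 0.33. Its tags also differed in direction, with 66 and 91 copies at site 2 (0.50) and 37 and 16 at site 4 (-1.15). Rab10, which delivers membrane to the growing axon, had 737 and 647 copies and a log2 ratio of -0.15 (-0.31 to 0.00). Rab8b and Rab13 had 5 and 7 copies and 10 and 9 copies.

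Rab12, grouped here with the exocytic Rabs and also known to carry the transferrin receptor towards lysosomes, was called lower and was the most copied of the 5 called members. It had 366 copies (108.06 TPM) with Scramble and 223 copies (67.51 TPM) with PIWIL1 RNAi, a log2 ratio of -0.68 (-0.93 to -0.43) with Fisher's exact test giving an FDR of 1.71e-06. Its site 1 tag had 271 and 196 copies and its site 2 tag 95 and 27, log2 ratios of -0.43 (-0.70 to -0.16) and -1.76 (-2.45 to -1.15). Both tags were lower, by amounts whose intervals did not overlap. With the site 1 tag alone, Rab12 passed the FDR threshold (FDR 0.0211 by the same test) but not the ratio threshold.

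The other 4 members have other or little-known roles, summed to 59.65 and 48.13 TPM, and included no called gene. Rab28, known from the cilium and from photoreceptors, had 159 copies (46.95 TPM) and 104 copies (31.48 TPM), with a log2 ratio of -0.58 (-0.95 to -0.21) just short of the ratio threshold, with Fisher's exact test giving an FDR of 0.0188. Its site 1 tag had 70 and 32 copies, its site 2 tag 39 and 44, and its site 4 tag 27 and 14. Taken alone, the site 1 tag would have been called lower, at a log2 ratio of -1.09. Rab40c and Rab40b belong to the Rab40 group, which carries a SOCS box that binds ubiquitin ligases. They had 26 and 44 copies and 14 and 9 copies, log2 ratios of 0.79 (0.06 to 1.55) and -0.60 (-1.99 to 0.71), and neither was called. Rab23, known from hedgehog signalling, had 3 and 2 copies.

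Tags of the same gene often differed in direction. Site 1 held 48.0% of the Rab copies with Scramble and 48.5% with PIWIL1 RNAi, and the most copied tag was at site 1 in 35 members. Of 19 members with at least 2 tags of 20 or more copies, 15 (78.9%) had tags in both directions, and 11 (57.9%) had 2 tags whose intervals did not overlap. Over the 3985 genes with at least 2 such tags the shares were 65.9% and 22.3%, but Rab genes and all genes were not matched for copies or for the number of tags, on which both shares depend. In Rab7a, with a gene ratio near 0, the site 2 tag had 348 and 434 copies (log2 ratio 0.35) and the site 3 tag 177 and 132 (-0.39). In Rab6a, the site 4 tag had 791 and 1007 copies (0.38), and the site 2 tag 150 and 123 (-0.25). In Rab10, the site 8 tag had 34 and 68 copies (1.03), and the site 1 tag 548 and 433 (-0.30).

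These differences went in part with the last bases of the tag. In the Rab7a and Rab6a pairs just given, each tag's ratio had the sign of the median of its end over all genes. The site 5 tag of Rab7a (8 and 14 copies, 0.81) also had the sign of its end, AA (0.16). Its site 1 tag (407 and 358 copies, -0.15) and site 4 tag (53 and 29, -0.82) had the opposite sign to their ends, CA (0.16) and GC (0.15). The Rab10 pair was not separated by its ends. Its higher tag ended in AG (median 0.11 over all genes) and its lower tag in GC (0.15). Of 96 Rab tags with at least 20 copies, 54 were lower and 42 higher, with a median log2 ratio of -0.10 (-0.08 for the 16021 such tags of all genes). The 17 Rab tags ending in GG, GT or TG, among them the site 2 tag of Rab12 and the site 1 tag of Rab28, summed to 888 copies with Scramble and 581 with PIWIL1 RNAi. Of these, 15 were lower, with a median of -0.59, where the median of all tags with these ends was -0.63. The 23 tags ending in AT, CT or TT, such as the site 1 tag of Rab38, had 2546 and 2084 copies, 20 lower and a median of -0.33 (-0.27 for all genes). The 12 tags ending in AA, CA or a run of 3 to 7 A had 2475 and 2815 copies, 10 higher and a median of 0.30 (0.18 for all genes). The 43 tags with any other end, such as the site 1 tags of Rab12 and Rab21, had 6522 and 6229 copies, 26 higher and a median of 0.13 (0.04 for all genes). Over the 96 Rab tags, which share 2 libraries and in part their genes, Pearson's r between the ratio of a tag and the median of its end over all genes was 0.491, and 0.417 over the 95 without the Rab4a tag.

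**Figure D4:**
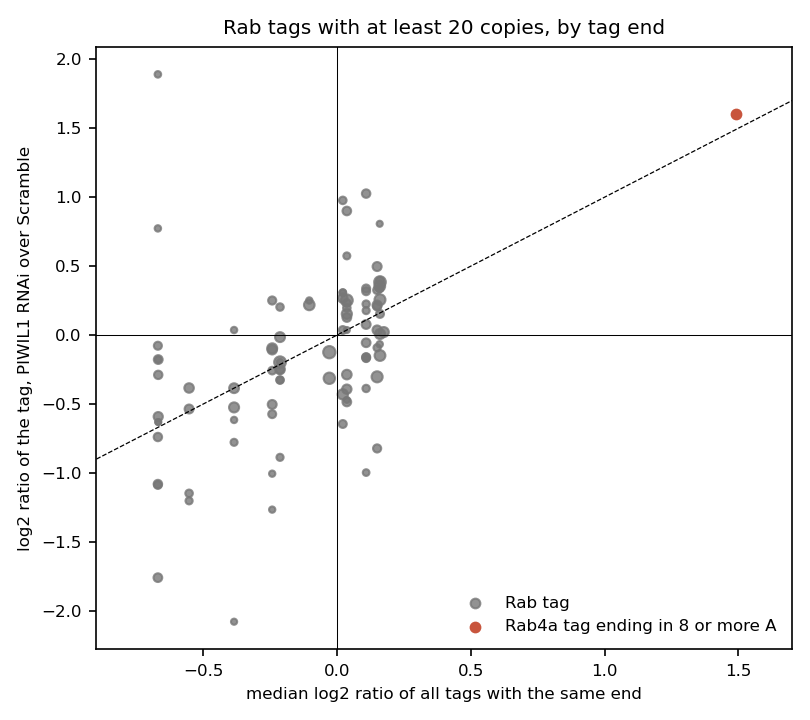
Log2 ratio of each Rab tag with at least 20 copies (y axis) against the median log2 ratio of all tags of the libraries with the same end (x axis), with larger points for tags with more copies and the dashed line at equal values. The Rab4a tag ending in 11 A is red and lies at the upper right, at 1.49 and 1.60; most tags whose end has a median below -0.2 lie below 0.

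Each called member was set beside the median of its tags' ends. The site 2 tag of Rab12 (-1.76) was further from 0 than the median of tags ending in TG (-0.67), and its site 1 tag (-0.43) lay away from that of tags ending in TC (0.02). The site 1 tag of Rab21 (0.90) lay away from the median of tags ending in TA (0.04), and that of Rab38 (-2.08) from the median of tags ending in AT (-0.39). For Rab28 the site 1 tag (-1.08) and the median for TG (-0.67) had the same sign. With the copies of every tag corrected for these medians, Rab12 (-0.64) and Rab38 (-2.20) were called lower, with 3.67% of all genes, and Rab21 (0.85) was called higher, with 1.9% of all genes, at FDRs of 1.54e-05, 0.0279 and 0.00800 by Fisher's exact test on the corrected copies. Rab4a turned to -0.10 at an FDR of 0.845, and Rab43 had an FDR of 0.0531. Beyond these values, the part of the tag end in the Rab ratios was not tested.

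A few Rab tags were near copies of one another. At 16 of the 241 pairs of member and site more than 1 tag was listed, and the 41 less copied tags, in 9 members, each differed from the most copied tag of their site by 1 base. They had at most 18 copies each, 57 with Scramble (0.435% of Rab copies) and 77 with PIWIL1 RNAi (0.616%), and 35 of the 41 were listed in only one library. Between members, 2 pairs of tags differed by 1 base. A tag of Rab3a (4 and 0 copies) and a tag of Rab3c (3 and 0 copies) differed by C14T, and a tag of Rab7a and a tag of Rab9a by C10T, in capitals.
Rab7a, site 4: catgcagatCtgggacacagc
Rab9a, site 2: catgcagatTtgggacacagc
The Rab7a tag had 53 and 29 copies, a small part of that gene, while the Rab9a tag had 23 and 21 and made up 91.7% of Rab9a. The value of Rab9a is therefore uncertain where a misread base would move copies from one tag to the other.

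The proteins that load, extract and regulate Rabs were described from a list of 145 genes, 81 of which had a value. Of these, 8 (9.88%) were called lower and 1 (1.23%) higher, where 5.97% and 2.96% of all genes were. Their median log2 ratio was -0.18 over the 65 with at least 20 copies, and -0.09 over all genes. None of the 8 genes for escort, prenylation and GDI proteins was called.

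Of 28 exchange factors, 4 were called lower and 0 higher. Of the 4, 3 were among the 12 subunits of the TRAPP complexes with a value, which activate Rab1 and Rab11. Trappc6b had 39 and 11 copies, a log2 ratio of -1.79 (-2.90 to -0.80) with Fisher's exact test giving an FDR of 0.00131. Trappc9 had 138 and 80 copies (log2 ratio -0.75), Trappc4 136 and 86 (-0.63), and Sbf2, a DENN-domain protein that acts on Rab28 and Rab21, 153 and 94 (-0.67). Dennd5a, the most copied of the exchange factors, had 369 and 387 copies and was not called.

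Of 18 GTPase-activating proteins, Rabgap1 (96 and 52 copies, log2 ratio -0.85) and Sgsm2 (120 and 71 copies, -0.72) were called lower. Tbc1d10b, which acts on Rab35 and Rab27, was called higher with 146 and 215 copies and a log2 ratio of 0.59 (0.28 to 0.91), close to the threshold. Of 27 effectors, 2 were called lower and 0 higher. Exoc6b, a subunit of the exocyst that tethers Rab11 vesicles to the plasma membrane, had 189 and 90 copies, a log2 ratio of -1.03 (-1.41 to -0.66) with Fisher's exact test giving an FDR of 4.86e-07. Golga4, a Golgi tether, had 24 and 7 copies and a log2 ratio of -1.74, and Uso1, the most copied effector and a tether for Rab1 vesicles, had 166 and 182 copies and was not called. With the correction for tag ends, 4 of the 81 regulators were called lower (Sbf2, Trappc9, Sgsm2 and Exoc6b), all of them among the 8 above, and 0 higher. Over all genes the shares were then 3.67% lower and 1.9% higher.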

How the data were processed

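Digital gene expression was measured in 1 Scramble and 1 PIWIL1 RNAi library. The authors deposited, per gene, the count of tag copies (not normalized), the TPM (copies scaled by the authors to clean tags of the library) and each tag with its site and copies. The build in the submitters' processing notes is rn4, and the aligner, its mismatch setting and the reference transcripts are not given in the sources used here. Columns of GO terms were not used. In the tables no tag had fewer than 2 copies, none was listed under more than 1 gene, and clean tags were recovered from TPM.

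Symbols were matched by accession to RefSeq (GRCr8 table), with 94.4% of 9894 genes matched, and no positions are given. Members, roles, gene lists, alternatives and the tests were chosen with earlier results of these data known. Named are the called members, those listed in 1 library with 5 or more copies, the 3 most copied of each role and the 3 in the study's supplementary lists (Rab4a, Rab21 and Rab43), besides called or most copied regulators, 1 of which is not reported here; other genes with values were named after these were seen. Alternatives for the regulators, and 2 for the calls without tags ending in 8 or more A, were added after seeing the data. The tag-end correction sorted tags into classes by the final 2 bases, or by the length of a run of 3 or more A (with 13 or more as 1 class). Class medians over tags with 20 or more copies, estimated on alternate genes, were taken out of the others. Columns with values of other samples numbered 0. The test per gene was checked on simulated counts with counting error only. Changes of 2-fold and 4-fold, each in 100 genes, were recovered in 100%, and 10 unchanged genes were called. These changes were put into well-copied genes only, so recovery at few copies, as in Rab43 and Rab38, was not checked. Tests ran in SciPy 1.17.1 with pandas 2.3.3 and NumPy 2.4.6 under Python 3.11.15, and figures in Matplotlib 3.10.9. Some alternatives used edgeR 4.0.16 or DESeq2 1.42.0 under R 4.3.3.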

Additional observations from a re-analysis of the deposited data

How the results depend on the processing

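With 1 library per condition no library could be left out, and no spread between cultures was measured. No paired analysis was possible because each group had 1 library and the labels carry no replicate numbers. Over the 17 alternatives the median log2 ratio of Rab genes lay between -0.14 and 0.02. Rab12 and Rab38 called lower became 1 gene with at least 10 copies in both libraries, with a log2 threshold of 1 and with an FDR threshold of 0.001. Restricting each gene to its most copied tag, or to its site nearest the 3′ end, called Rab28 (log2 ratio -1.09) in place of Rab12. Of the 3 called higher, 1 remained with the tag-end correction (Rab21) and 1 with an FDR threshold of 0.001 (Rab4a). The edgeR exact test with an assumed coefficient of variation of 0.1 called 0 lower and 1 higher (Rab4a), and with 0.2 or 0.4 called 0 and 0. Over all genes these 3 fits called 170 lower and 114 higher, 2 and 15, and 0 and 0. Rab4a reversed to -0.10 with the tag-end correction. Of 16 named Rab genes that were not called, 3 (Rab11b, Rab7a and Rab9b), all within 0.084 of 0, changed sign under some scaling or choice of tags and reached at most 0.256. Without tags ending in 8 or more A, 1 gene was called higher, Rab21, when every tag missing from one table got 1 copy there, and with genes of at least 10 copies in one library. Of the Rab regulators, 4 were called lower with the tag-end correction and 2 with a variation of 0.1, and 0 were called higher under both and when missing tags got 1 copy. TMM factors moved the all-gene split from 591 lower and 293 higher to 459 and 398, DESeq2 factors to 475 and 382, and both called the same 5 Rab genes. The tag-end correction gave 363 and 188, only the most copied tag 564 and 381, thresholds of 1 and 0.001 gave 262 and 146 and 257 and 163. The cause of these moves was not tested.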
